A study of Mus musculus with 17 samples.

Results

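Of the 24594 genes in the count tables, 36 imprinted mouse genes were chosen by symbol and described in all 17 libraries. The choice applied no cut on measured values but was made with earlier results of these data known. Each of the 36 symbols was found. The libraries are RNA-seq of mouse spleen CD8 T cells, which the labels mark as CD8+Thy1.1+, and they differ in the gene that was modified. Rosa KO, with 5 libraries, served here as the control, and the knockouts Asxl1 KO, Dnmt3a KO and Tet2 KO had 4 libraries apiece. How the knockouts were made, the age of the mice and whether replicates came from separate animals were not given by the sources used here, so a p-value reflects the library-to-library spread alone, and that spread may be technical. Asxl1 encodes a Polycomb-associated chromatin protein, Dnmt3a a DNA methyltransferase that sets new methylation, and Tet2 an enzyme that oxidises methylated cytosine.

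An imprinted gene is transcribed mainly from the copy inherited from 1 parent. The choice of copy is set by DNA methylation laid down in the egg or sperm at an imprinting control region, and it is kept through cell division by the maintenance methylase Dnmt1 and by zinc finger proteins such as Zfp57. Many clusters hold a long noncoding RNA that is made from 1 parental copy and keeps neighbouring protein genes quiet on that same chromosome. Most of these genes are best known for roles in growth of the fetus and placenta, and many are switched off in adult tissues. Counts sum both parental copies, so allelic expression was not measured.

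Promoters of 3 noncoding RNAs are shown because their transcripts differed in the results below: Airn and Kcnq1ot1 were read in every library, while Meg3 was almost silent outside 2. They are from RefSeq on GRCm38.p6 (the build also called mm10), cover 250 bases before to 50 after the annotated start, and carry CpG dinucleotides, the sites of DNA methylation, in capitals. Airn is chr17:12741061-12741360 on the plus strand, Kcnq1ot1 is chr7:143296498-143296797 on the minus strand, and Meg3 is chr12:109540746-109541045 on the plus strand.
Airn: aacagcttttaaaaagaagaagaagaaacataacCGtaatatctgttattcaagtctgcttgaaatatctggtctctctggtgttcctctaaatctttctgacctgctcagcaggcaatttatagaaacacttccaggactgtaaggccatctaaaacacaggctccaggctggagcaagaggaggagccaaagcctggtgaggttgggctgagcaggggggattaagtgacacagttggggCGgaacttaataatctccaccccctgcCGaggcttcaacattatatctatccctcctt
Kcnq1ot1: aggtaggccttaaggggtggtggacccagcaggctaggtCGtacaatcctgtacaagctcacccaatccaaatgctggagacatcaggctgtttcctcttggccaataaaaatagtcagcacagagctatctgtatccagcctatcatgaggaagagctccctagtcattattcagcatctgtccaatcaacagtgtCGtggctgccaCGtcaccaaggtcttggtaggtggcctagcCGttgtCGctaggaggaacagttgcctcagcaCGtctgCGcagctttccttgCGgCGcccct
Meg3: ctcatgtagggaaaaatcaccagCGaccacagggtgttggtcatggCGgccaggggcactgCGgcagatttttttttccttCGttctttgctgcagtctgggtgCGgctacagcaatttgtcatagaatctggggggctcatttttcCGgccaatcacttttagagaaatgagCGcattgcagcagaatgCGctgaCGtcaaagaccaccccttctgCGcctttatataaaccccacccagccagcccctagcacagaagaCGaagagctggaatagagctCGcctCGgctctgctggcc
Airn had 3 CpG in this window, Kcnq1ot1 had 9 and Meg3 had 13. The RefSeq promoter table held 29 of the 36 genes, with a median of 17 CpG against 7 over all 27025 promoters of that length. The 15 promoters of genes expressed well enough to test had a median of 17 CpG (range 0 to 34), and the 14 of genes below that level had 13 (range 2 to 45), so the ranges overlapped. The hexamer TGCCGC, the core of the Zfp57 motif, was found on either strand in 8 of the 29 promoters, against 11.6% of all promoters; a match describes the letters only. Methylation and binding were not analysed here.

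Total counts ran from 6625833 to 40701203 per library (median 21642477), and the 36 genes together took 0.124 to 0.194% of them. The library numbers in the labels fall into 3 separate runs, which the labels do not call batches. Run 1 held Rosa KO 1, Asxl1 KO 1 and Dnmt3a KO 1 and 2; run 2 held Asxl1 KO 2, Dnmt3a KO 3 and 4 and Tet2 KO 1 and 2; and run 3 held Rosa KO 2 to 5, Asxl1 KO 3 and 4 and Tet2 KO 3 and 4. The 7 CD8 T cell markers found in the tables all had counts, with summed levels of 4300 to 11500 CPM per library (CPM are counts scaled to a common library size by TMM, the edgeR normalization). B cell markers summed to 89.6 to 2100 CPM, and erythroid markers to 427 to 2970 CPM in run 1 against 19.1 to 151 in the others. None of the targeted genes passed in its own knockout against Rosa KO (edgeR with Benjamini-Hochberg adjustment: Asxl1 adjusted p = 0.836, Dnmt3a 0.978, Tet2 0.734), so total counts gave no check of the labels; whether the counted exons include the edited part was not given by the sources used here.

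The 36 genes split into 19 that passed the filter on low counts and were tested, and 17 that fell below it. Most of the 17 were silent or close to it in most libraries. The filter does not part expressed from silent genes: Cdkn1c, below it, had a mean of 0.613 CPM, and the tested Rian had 0.596. Of the 17, Snrpn had no count in any library, Mirg reached at most 3 counts in any library, and 15 had more than that but were removed by the filter on low counts. A count of 3 corresponds to 0.0703 to 0.453 CPM, depending on depth, and is the limit that a count of 0 allows, for counting error only. The 17 genes together had 925 counts over all libraries, against 566117 for the other 19. Of the 289 combinations of these 17 genes with a library, 220 were at 0. Among genes listed as expressed from the father's copy where they are imprinted, 10 of 18 were tested. Among those listed for the mother's copy 6 of 14 were, and all 3 genes whose expressed copy depends on the isoform. The listed copy need not apply in T cells, where it was not measured. Noncoding RNAs were tested in 4 of 7 cases and protein genes in 15 of 29.

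**Figure D1:**
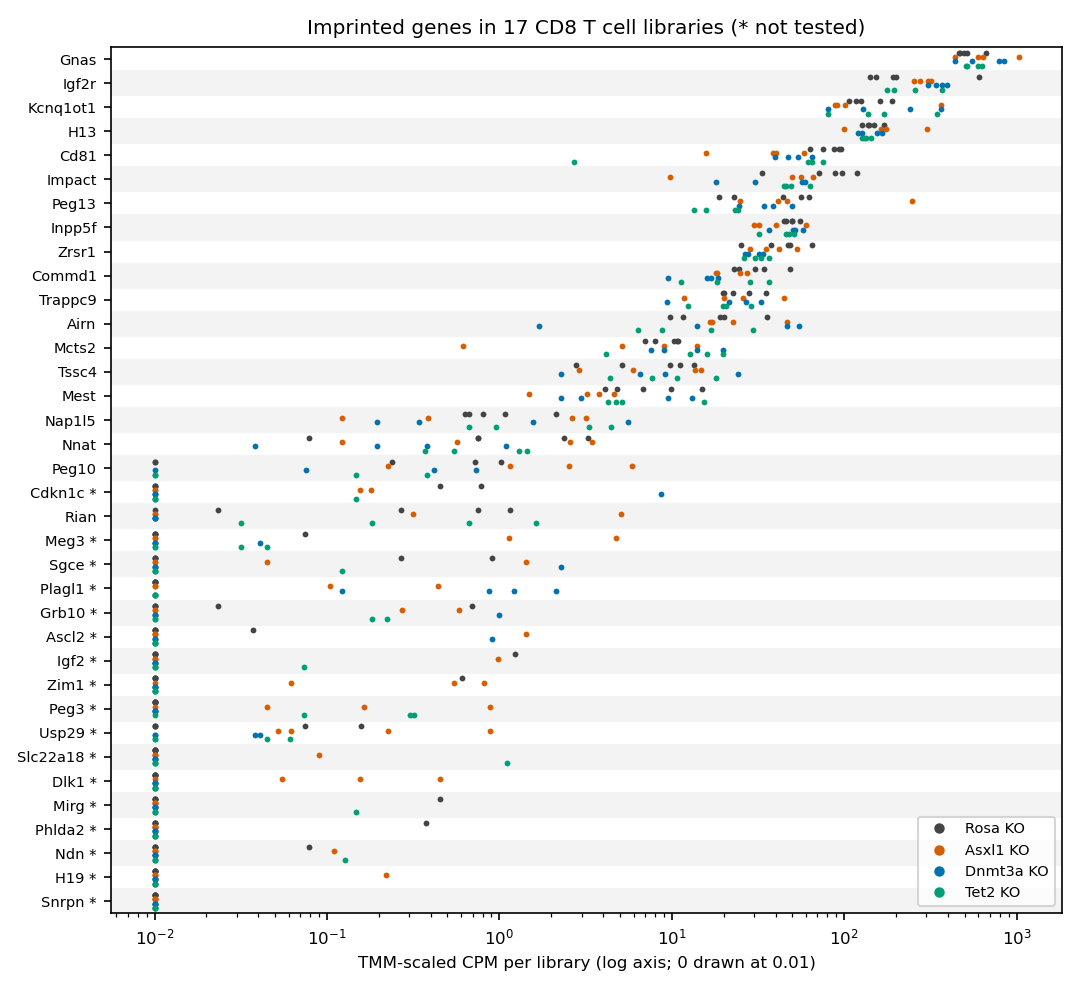
Level of each of the 36 imprinted genes in every library, as TMM-scaled CPM on a log axis with 0 drawn at 0.01; each point is 1 library, coloured by group, and genes with an asterisk were not tested. Gnas and Igf2r lie highest, and Snrpn is at 0 in all 17 libraries.

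Some clusters were silent or nearly so throughout. At the H19 and Igf2 locus on chromosome 7, H19, a noncoding RNA of the maternal copy, had 4 counts, all in Asxl1 KO 4. Igf2, the fetal growth factor of the same locus, had 42 counts, of which 23 were in Rosa KO 1 and 18 in Asxl1 KO 4. It shares 3596 bases of exon with the gene model Gm49394 on the same strand, so its low count is uncertain for the reason given below for Snrpn. Igf2r, the receptor that takes Igf2 to the lysosome, was by contrast the gene with the second highest mean CPM of the 36. At the Prader-Willi locus, Snrpn, which encodes a spliceosome protein, stood at 0 counts and Ndn, a neuronal growth regulator, had 7 counts. Snrpn shares 216 bases of exon with Snurf, a short reading frame of the same transcript, which itself had 5 counts. It also shares 589 bases of exon with the gene model Gm38393 on the same strand and is 95.3% identical to the pseudogene Gm5802 over 700 bases, so the value of 0 is uncertain, since how reads shared between genes were counted was not given by the sources used here.

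The Dlk1 and Meg3 cluster on chromosome 12 was also close to silent. Dlk1, a Notch-like membrane protein of the paternal copy, had 14 counts, and the maternal noncoding RNAs Meg3 and Mirg had 117 and 5. Of the 117 Meg3 counts, 87 were in Asxl1 KO 4 and 25 in Asxl1 KO 3. In CPM, Meg3 stood at 4.77 in Asxl1 KO 4 and 1.13 in Asxl1 KO 3, and between 0 and 0.0745 in the other 15 libraries. Rian, the noncoding RNA between them that hosts small nucleolar RNAs, passed the filter at a mean of 0.596 CPM. Its highest value was 5.1 CPM, also in Asxl1 KO 4, and it had no count in the 4 Dnmt3a KO libraries. In Rosa KO 1 to 5 Rian stood at 0.269, 0, 1.16, 0.0234 and 0.755 CPM, in Asxl1 KO 1 to 3 at 0, 0 and 0.316, and in Tet2 KO 1 to 4 at 0.0318, 1.63, 0.665 and 0.183. Rian was thus the weakest of the 19 tested genes, and under a filter of at least 1 CPM in 4 libraries it would not have been tested.

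In the Peg3 cluster, the zinc finger gene Peg3 had 37 counts, its neighbour Zim1 33 and the deubiquitinase gene Usp29 31. In the Kcnq1ot1 cluster, the cell cycle inhibitor Cdkn1c had 262 counts, the placental gene Phlda2 16, the transcription factor Ascl2 51 and the transporter Slc22a18 37. These came largely from single libraries: 229 of the Cdkn1c counts were in Dnmt3a KO 1 (8.71 CPM, with 0 to 0.782 in the other 16 libraries), 35 of those of Slc22a18 in Tet2 KO 1, and all 16 of Phlda2 in Rosa KO 4. Cdkn1c was thus read at an appreciable level in 1 of 4 Dnmt3a KO libraries, and at 0 in the other 3. The other members below the filter were Plagl1, a zinc finger gene linked to growth, with 114 counts, the signalling adaptor Grb10 with 68 and the sarcoglycan gene Sgce with 87. Plagl1 stood at 1.22, 2.14, 0.122 and 0.868 CPM in Dnmt3a KO 1 to 4, at 0 in every Rosa KO and Tet2 KO library, and at 0 to 0.439 in Asxl1 KO. The Dnmt3a KO values of Plagl1 overlapped those of Asxl1 KO but not those of Rosa KO and Tet2 KO; it did not pass the filter, was not tested, and its values are singled out after they were seen.

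Counts of the 17 genes below the filter were not spread evenly. In 15 libraries, 1 to 5 of the 17 had a count; in Asxl1 KO 3 there were 9 and in Asxl1 KO 4 there were 12. These libraries also had counts for the most genes of any kind, 16862 and 17940 against 12901 to 15328 in the others, at total counts of 22056899 and 18014394, which are not the deepest. Together the pair held 30.8% of the counts of the 17 genes and 10.5% of the counts of the 19 tested ones. By number of counts Dnmt3a KO 1 came first, with 312 counts of the 17 genes, of which 229 were of Cdkn1c. Asxl1 KO 3 had 79 and Asxl1 KO 4 had 206. For single genes the share was 95.7% for Meg3, 84.8% for Zim1, 78.6% for Dlk1, 67.7% for Usp29, and 1.53% for Cdkn1c. Markers of stromal fibroblasts summed to 6.04 CPM in Asxl1 KO 4 and 0.723 in Asxl1 KO 3, against 0 to 3.64 elsewhere, with Lum at 0 in every library; their part in the result was not tested.

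**Figure D2:**
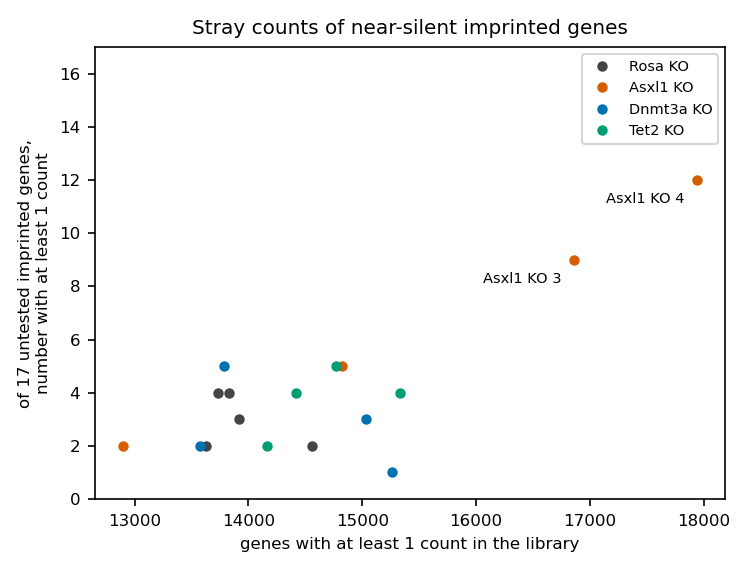
Number of the 17 untested imprinted genes with at least 1 count, against the number of all genes with at least 1 count, for each of 17 libraries coloured by group. Asxl1 KO 3 and 4 lie apart, at 9 and 12 genes.

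Levels of the 19 tested genes were compared per kilobase of exon. Per kilobase of exon, Gnas, which encodes the stimulatory G protein subunit, came first with a mean of 53.6 CPM per kilobase, at the 94.2nd percentile of tested genes. Next were Igf2r at 30.7, the tetraspanin Cd81 at 20, the signal peptide peptidase H13 at 17, the translation factor Mcts2 at 11.5 and Impact, a regulator of translation, at 11. Adjacent genes in this order were not tested against each other. The noncoding RNAs lay below the genes just named and were spread over the rest of the 19: Peg13 at 9.81, Airn at 6.18, Kcnq1ot1 at 1.83 and Rian at 0.0327 CPM per kilobase. The length of Airn is uncertain, since it is long and unspliced in part: over its span of 118574 bases the value is 0.188. Zrsr1, a splicing factor copy, stood at 8.23 and Inpp5f, a phosphatase, at 5.52 CPM per kilobase. The other 7 tested genes ran from 0.119 (Peg10, a retrotransposon-derived gene) to 5.17 (Tssc4, of the splicing machinery), with Mest, the nucleosome assembly family gene Nap1l5, the neuronal proteolipid gene Nnat, Commd1 and the vesicle tethering subunit Trappc9 between them.

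Gnas had the lowest biological coefficient of variation of the 19, at 0.157, followed by H13 at 0.198 and Igf2r at 0.222. That measure is the spread between libraries beyond counting error that remains after group and run are fitted, so run differences are not in it. The highest were Rian at 1.6, Peg10 at 1.35 and Nnat at 1.13. The median was 0.459, against 0.409 over all 13881 tested genes. In Rosa KO 1 to 5 Gnas stood at 662, 494, 465, 513 and 472 CPM, and in Tet2 KO 1 to 4 at 515, 511, 628 and 597. It stood at 1030, 440, 638 and 600 in Asxl1 KO 1 to 4 and at 795, 843, 440 and 549 in Dnmt3a KO 1 to 4. All 4 libraries of run 1 lay above every library of runs 2 and 3.

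Several imprinted genes are nested in or antisense to another. Airn, which starts within Igf2r and is read from the opposite strand, shares no exonic base with it. Peg13 lies inside Trappc9, and Mcts2 inside H13, on the same strand with no shared exonic base, while Zrsr1 lies inside Commd1 on the opposite strand and shares 412 exonic bases. Mest shares 912 exonic bases with Copg2 on the opposite strand and Tssc4 220 with Trpm5. Also on the opposite strand, Gnas shares 1469 exonic bases with Gm20721 and 988 with Nespas, and Cdkn1c 625 with Gm44732. Whether counting used strand was not given by the sources used here, so those values are uncertain, and reads of Mcts2 could be shared with its source gene Mcts1, which is 85.9% identical over 383 bases.

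Across the 17 libraries, the 6 pairs of neighbours or of silencing RNAs that were compared on log2 CPM gave 1 relation that held by Pearson and Spearman. Kcnq1ot1 and Airn rose and fell together (Pearson r = 0.68, permutation p = 0.00056, adjusted over 6 relations 0.00336). Spearman rho was 0.64 (permutation p = 0.00754, adjusted 0.0452), and r was 0.55 without the 2 libraries farthest from the median of Kcnq1ot1. The permutations ignored run, and both RNAs had their highest mean in run 2. These p-values therefore do not separate shared run differences from covariation between libraries of a run. Within run 3 (n = 8) r was 0.13 (exact permutation p = 0.753), so the relation did not hold within the run that has enough libraries; runs 1 and 2 hold too few. H13 and Mcts2 gave r = -0.76 (permutation p = 0.0156, adjusted 0.0467) and rho = -0.39 (permutation p = 0.124, adjusted 0.371). That relation rests on the libraries farthest out, since r was -0.22 without the 2 farthest from the median of H13. Asxl1 KO 1 had the most H13, 303 CPM where the other 16 libraries had 99.4 to 175, and the least Mcts2, 0.617 CPM where the others had 4.13 to 19.9. H13 stood at 303, 99.4, 163 and 175 CPM in Asxl1 KO 1 to 4, and its mean was 144 ± 16.2 in Rosa KO (SD, n = 5) and 142 ± 21.6 in Dnmt3a KO (SD, n = 4). Mcts2 stood at 7.95, 6.96, 10.3, 10.7 and 10.9 CPM in Rosa KO 1 to 5 and at 0.617, 14, 5.15 and 9.05 in Asxl1 KO 1 to 4. In Dnmt3a KO 1 to 4 Mcts2 was 14.1, 7.53, 19.8 and 9, and in Tet2 KO 1 to 4 it was 16, 19.9, 4.13 and 12.7, so all groups overlapped.

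No imprinted gene passed in any of the 6 comparisons between groups (edgeR quasi-likelihood test on group and run, Benjamini-Hochberg adjusted over 13881 genes). Of all tested genes 1.64% were called for Asxl1 KO against Rosa KO, 0.216% for Dnmt3a KO against Rosa KO, 1.47% for Tet2 KO against Rosa KO, 0.353% for Asxl1 KO against Dnmt3a KO, 0.562% for Asxl1 KO against Tet2 KO and 0.0937% for Dnmt3a KO against Tet2 KO, so a count of 0 in 19 is near the background. At an unadjusted p under 0.05 there were 3, 2, 4, 2, 3 and 1 of the 19 in that order, where the share of all tested genes was 15.7, 8.03, 12.2, 11, 7.21 and 5.6%. DESeq2 called 1, 0, 1, 0, 1 and 0 of the 19. It also called a larger share of all tested genes than edgeR in each comparison, as given in the closing section. The median log2 fold change of the 19 genes against Rosa KO was -0.22 (Asxl1 KO), -0.51 (Dnmt3a KO) and -0.48 (Tet2 KO). That of all genes was 0, 0 and -0.02. For the 29 tested genes of a further list of imprinted genes, described below, the medians had the opposite sign, at 0.18, 0.17 and 0.32. All these medians come from the fit with the run term, and single values moved without that term, as given below. These 3 comparisons share the Rosa KO libraries. Rian is among the 19 and has no count in Dnmt3a KO, so its fitted change has no meaning as a size.

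**Figure D3:**
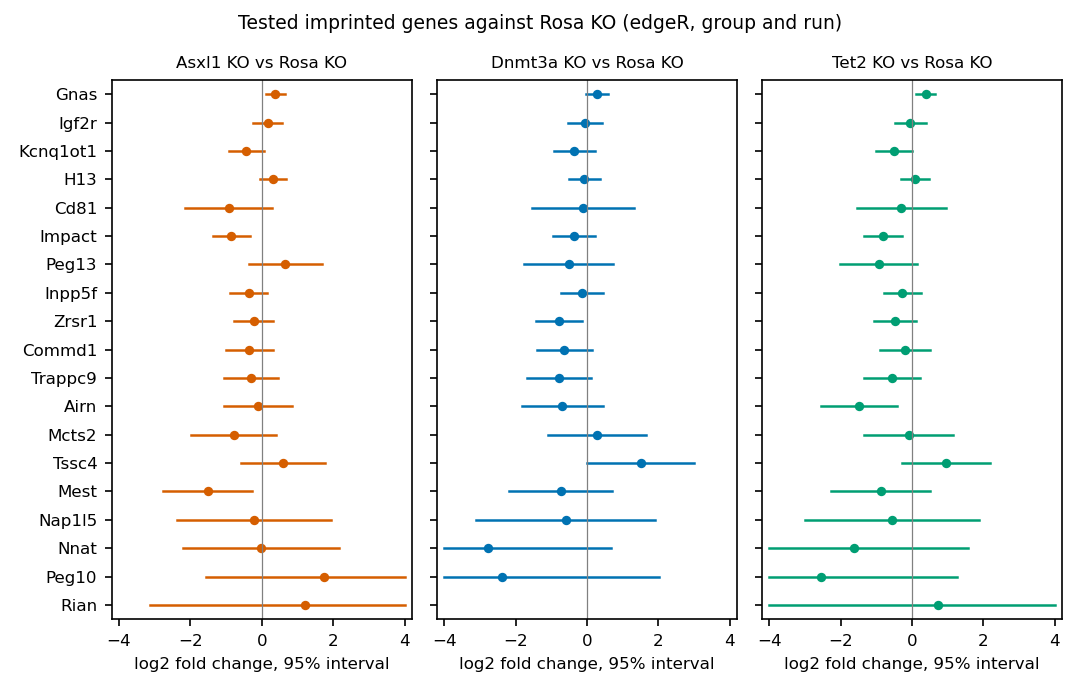
Fitted log2 fold change of each tested imprinted gene in the 3 knockouts against Rosa KO, with the 95% interval (edgeR, group and run); intervals are clipped at 4, and Rian is not drawn for Dnmt3a KO, where it had no count. No gene passed after adjustment.

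Impact came closest. It stood at 33.4, 96.6, 118, 88.9 and 71.6 CPM in Rosa KO 1 to 5 and at 9.81, 50, 65.8 and 56.1 in Asxl1 KO 1 to 4. In Tet2 KO 1 to 4 it was 46.2, 49, 45 and 63.4, and in Dnmt3a KO 1 to 4 it was 30.2, 18, 59.1 and 56.7. The low Rosa KO value is from run 1, and the groups overlapped. The log2 fold change was -0.85 ± 0.25 (SE) for Asxl1 KO (edgeR adjusted p = 0.0796) and -0.81 ± 0.26 for Tet2 KO (edgeR adjusted p = 0.149). DESeq2 called both, with adjusted p = 0.01981 and 0.04999. Within run 3 alone the Asxl1 KO difference was -0.62 ± 0.25 (2 libraries against 4, edgeR adjusted p = 0.18) and that of Tet2 KO -0.79 ± 0.25 (edgeR adjusted p = 0.11). For Dnmt3a KO the value was -0.35 ± 0.28 (edgeR adjusted p = 0.813, 95% interval -0.94 to 0.23).

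Gnas was slightly higher in point estimate, by a log2 fold change of 0.38 ± 0.13 in Asxl1 KO and 0.38 ± 0.13 in Tet2 KO (edgeR adjusted p = 0.122 and 0.188); without the run term the Tet2 KO value was 0.11. Airn, which represses Igf2r on the paternal copy, had -1.49 ± 0.51 in Tet2 KO (edgeR adjusted p = 0.182); without the run term the value was -0.32 (adjusted p = 1), and without the filter on low counts it was -1.5 and passed (adjusted p = 0.02854). Airn stood at 19, 35.9, 11.6, 9.71 and 20.2 CPM in Rosa KO 1 to 5 and at 16.9, 29.4, 6.35 and 8.83 in Tet2 KO 1 to 4, with overlap. Igf2r itself differed by -0.05 ± 0.21 in Tet2 KO, 0.16 ± 0.2 in Asxl1 KO and -0.06 ± 0.23 in Dnmt3a KO, all with 95% intervals between -0.54 and 0.57. Mest, a hydrolase-like gene, had -1.52 ± 0.61 in Asxl1 KO (edgeR adjusted p = 0.208), with means of 3.28 ± 1.34 CPM (SD, n = 4) and 8.13 ± 4.46 (SD, n = 5). In Dnmt3a KO, Zrsr1 had -0.78 ± 0.31 and Tssc4 1.51 ± 0.73 (edgeR adjusted p = 0.482 and 0.615); without the run term the value of Tssc4 was 0.32.

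Of the 19 tested genes, 1 lay below Rosa KO without overlap in Asxl1 KO (Cd81) and 1 in Dnmt3a KO (Commd1), where 1.4% and 2.01% of all tested genes did, so these counts are near the background. Cd81 stood at 58.7, 15.9, 40.1 and 38.8 CPM in Asxl1 KO 1 to 4 and at 63, 87, 75.3, 93.1 and 95.6 in Rosa KO 1 to 5 (log2 fold change -0.93 ± 0.57, edgeR adjusted p = 0.47). In Dnmt3a KO 1 to 4 it was 65.1, 54.2, 47 and 39.8, and in Tet2 KO 1 to 4 it was 62.1, 2.71, 74.9 and 64.8, both overlapping Rosa KO. Within run 3 alone the Asxl1 KO difference of Cd81 was -1.15 ± 0.23 (edgeR adjusted p = 0.00565). Cd81 was lowest, 2.71 CPM, in Tet2 KO 2, the library with the least B cell marker RNA (89.6 CPM summed). The order did not hold throughout: Rosa KO 1 had 373 CPM of these markers and Cd81 at 63, and Dnmt3a KO 2 had 1670 and 54.2. In run 3, B cell markers summed to 511 and 478 CPM in Asxl1 KO 3 and 4 and to 1890 to 2100 CPM in Rosa KO 2 to 5. With the mean B cell marker level as a covariate the Asxl1 KO difference of Cd81 was -0.4 ± 0.37 (edgeR adjusted p = 0.652). Under that covariate the Tet2 KO difference was -0.55 ± 0.39, against -0.3 ± 0.58 without it. For Dnmt3a KO it was -0.29 ± 0.43, against -0.11 ± 0.67. Whether B cell content caused any of these differences was not tested. In bulk samples fewer cells of a type and less RNA per cell cannot be told apart. Commd1, a copper and NF-kappa-B regulator, ran from 9.54 to 18.5 CPM in Dnmt3a KO and from 23 to 48.7 in Rosa KO (-0.64 ± 0.37, edgeR adjusted p = 0.704; -1.08 without the run term). Those 2 groups share only run 1, where Rosa KO 1 stood at 34.4 CPM and Dnmt3a KO 1 and 2 at 18.5 and 16.8. Means of Commd1 in runs 1 to 3 were 22, 14.7 and 30.5 CPM. The lack of overlap in CPM thus mixes group with run.

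The run term called 6 of the 19 genes (31.6%), against 23.6% of all tested genes, a share near the background; 11 of the 19 were at an unadjusted p under 0.05, against 35.6% of all genes. Igf2r fell from run 1 to run 3 by 1.12 ± 0.19 on the log2 scale (edgeR adjusted p = 0.000398 for the run term). Impact rose by 1.52 ± 0.26 from run 1 to run 2 and by 1.8 ± 0.27 from run 1 to run 3 (edgeR adjusted p = 7e-05). Gnas fell by 0.85 ± 0.13 and 0.54 ± 0.12 over the same steps (edgeR adjusted p = 9.65e-05), and H13 fell by 0.67 ± 0.18 and 0.48 ± 0.17 (edgeR adjusted p = 0.0173). H13 no longer passed without Asxl1 KO 1 (edgeR adjusted p = 0.123), nor Igf2r without Rosa KO 1 (0.0642).

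The silencing RNAs had their highest mean in run 2. Kcnq1ot1, which quiets its cluster on the paternal chromosome 7, rose by 1.64 ± 0.25 from run 1 to run 2 and fell by 1.48 ± 0.23 from run 2 to run 3 (edgeR adjusted p = 1.57e-05), and Airn rose by 2.13 ± 0.51 and fell by 1.76 ± 0.47 (edgeR adjusted p = 0.00465). Kcnq1ot1 stood at 366 CPM in Asxl1 KO 2, 365 and 240 in Dnmt3a KO 3 and 4, and 171 and 345 in Tet2 KO 1 and 2, all of run 2. It ran from 107 to 189 in Rosa KO, with a mean of 140 ± 34.1 (SD, n = 5), at 88.5, 91.4 and 101 in Asxl1 KO 1, 3 and 4, at 128 and 80.5 in Dnmt3a KO 1 and 2, and at 80.2 and 137 in Tet2 KO 3 and 4. Only Rosa KO 5, at 189, lay above the lowest run 2 library. Airn reached 46.6 in Asxl1 KO 2 and 54.8 and 46.5 in Dnmt3a KO 3 and 4, against 17.2, 22.8 and 16.6 in Asxl1 KO 1, 3 and 4 and 14.1 and 1.7 in Dnmt3a KO 1 and 2. Within Asxl1 KO and within Dnmt3a KO, the run 2 libraries were thus the highest for Airn. In Tet2 KO 1 and 2 of run 2 Airn was 16.9 and 29.4, above Tet2 KO 3 and 4 at 6.35 and 8.83. Both lay below Rosa KO 2 of run 3, at 35.9, so the runs overlapped. Run 2 has no Rosa KO library, so these levels have no control beside them. Erythroid markers were highest in run 1 and myeloid markers summed to 204 to 772 CPM in run 2 against 861 to 1450 in run 1 and 659 to 1120 in run 3; their part in the run differences was not tested.

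**Figure D4:**
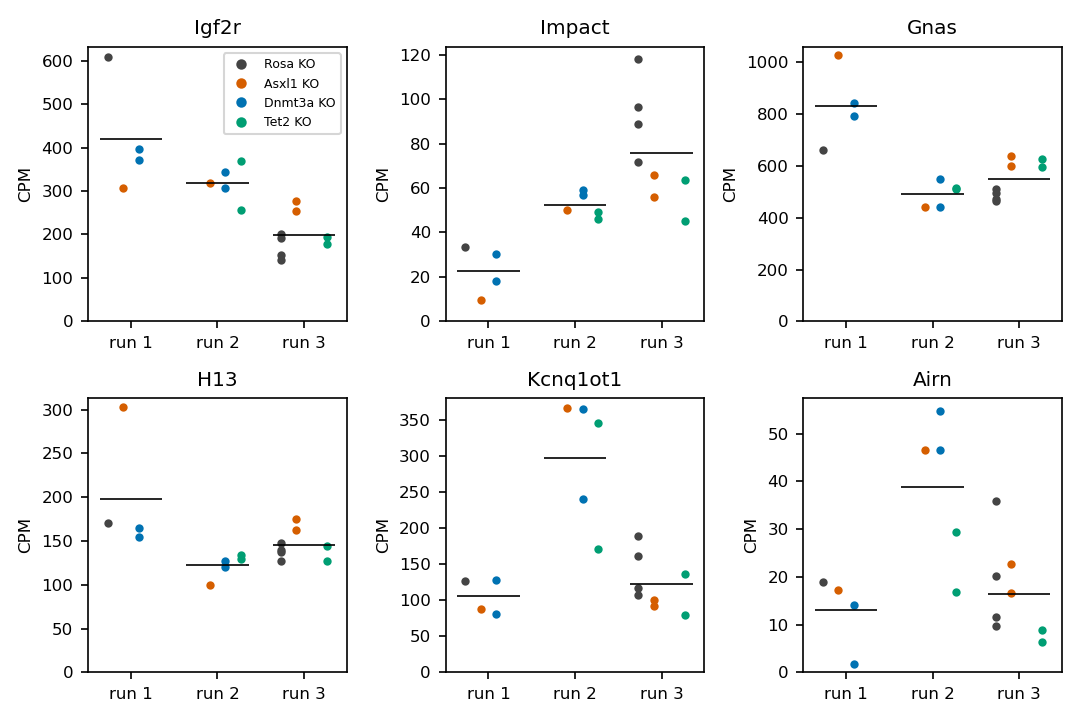
CPM of the 6 imprinted genes that passed the run term, by run, with each library as a point coloured by group and the run mean as a line; axes start at 0. By run mean, Impact is lowest in run 1, Kcnq1ot1 and Airn are highest in run 2 and Igf2r is lowest in run 3.

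Igf2r values were lower in Asxl1 KO than in Rosa KO in run 1 and higher in run 3, the runs that hold both. In run 1 Rosa KO 1 stood at 608 CPM and Asxl1 KO 1 at 308, and in run 3 Rosa KO 2 to 5 stood at 152, 141, 193 and 200 and Asxl1 KO 3 and 4 at 276 and 254. The log2 difference was -0.99 in run 1, where 1 library of each group allows no call, and 0.63 ± 0.17 in run 3 (edgeR adjusted p = 0.0346). The difference between runs was 1.61 ± 0.33 (edgeR with 1 level per group and run, adjusted p = 0.01), where 4.15% of all genes were called, and it was tested after the values were seen. It rests on 1 library of each group in run 1, of which Rosa KO 1 stands apart from the other Rosa KO libraries. Igf2r in Asxl1 KO 2 (run 2) was 319, in Dnmt3a KO 1 to 4 it was 396, 371, 343 and 306, and in Tet2 KO 1 to 4 it was 257, 368, 194 and 177.

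Peg13, a noncoding RNA, was set apart by 1 library. It stood at 246 CPM in Asxl1 KO 1 and at 25, 46.9 and 41.1 in Asxl1 KO 2 to 4. In Rosa KO 1 to 5 it was 56.1, 18.8, 23, 44.2 and 62.2, in Dnmt3a KO 1 to 4 it was 38.7, 34.3, 49.8 and 24.5, and in Tet2 KO 1 to 4 it was 23.4, 15.9, 13.5 and 24.2. The highest Tet2 KO value, 24.2, lay just below the lowest of Asxl1 KO, 25, and of Dnmt3a KO, 24.5. The share of all tested genes without overlap in these comparisons was not computed. Dnmt3a KO against Tet2 KO gave 0.42 ± 0.52 (edgeR adjusted p = 0.987). Asxl1 KO against Tet2 KO gave 1.59 ± 0.53, and without Asxl1 KO 1 the value was 0.95; DESeq2 called it on all libraries (adjusted p = 0.04055). Against Dnmt3a KO the value was 1.17 ± 0.54, and 0.12 without Asxl1 KO 1. Peg13 and H13 were also the genes of the 19 whose difference between Asxl1 KO and Dnmt3a KO differed between runs 1 and 2 (2 of 19, against 3.06% of all genes; Peg13 -3.32 ± 0.82, edgeR adjusted p = 0.0285; H13 -1.24 ± 0.33, edgeR adjusted p = 0.0385). Asxl1 KO 1 was also the library with the most erythroid marker RNA, 2970 CPM summed, and the fewest genes with a count, 12901; their part in the result was not tested.

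Other imprinted genes and the machinery that keeps imprints were described by counts. Of 59 further imprinted genes or neighbours listed, 57 were in the tables and 29 were tested, and none was called in any of the 6 comparisons (edgeR; 2, 2, 4, 1, 4 and 1 at an unadjusted p under 0.05); for 5 of 29 (17.2%) the run term passed, against 23.6% of all tested genes, among them the ubiquitin ligase gene Ube3a and its antisense RNA Snhg14. Of 20 genes that maintain imprints, such as Dnmt1, Uhrf1, Trim28 and Zfp445, 18 were tested and none was called in any comparison (4, 2, 5, 2, 1 and 0 at an unadjusted p under 0.05). The run term passed for 7 of the 18 (38.9%), against 23.6% of all tested genes. Over all tested genes the unadjusted shares in the 6 comparisons were 15.7, 8.03, 12.2, 11, 7.21 and 5.6%. Those lists were not tested for enrichment.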

How the data were processed

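The authors deposited raw counts per gene for 24594 genes in each of 17 libraries. Tools listed in the submitters' processing notes are STAR 2.5.3a and DESeq2 1.26.0, and the build is mm10; the counter, annotation and use of strand were not given by the sources used here. Every row has a gene identifier (3 have no symbol), and all per-sample columns were used. The 36 members and the lists were chosen with earlier results of these data known. Testing used edgeR 4.0.16 (R 4.3.3) after TMM scaling (robust quasi-likelihood) in a model of group plus run with 11 residual degrees of freedom; 13881 genes passed filterByExpr (minimum count 10, total 15), and a gene was called at a Benjamini-Hochberg adjusted p under 0.05 over all of them. A prior count of 2 went into log2 CPM. Members below the filter are described by counts. Values by library, or as ranges or means, are given for members called in any test, for noncoding RNAs above the floor and for the 6 highest per length; others were chosen after their values were seen. Chi-square per degree of freedom between libraries of 1 group was 19.7 to 258, so no library was counted as a duplicate. Coordinates are RefSeq GRCm38.p6 and exonic lengths GENCODE M21. The fit was first tested on simulated counts. Alternatives were no run term, DESeq2 1.42.0, RLE scaling, no filter, a B cell covariate, a replicate block, fits within each run and leaving out each library; a test of group by run, and leaving out Asxl1 KO 3 and 4 together, were added after seeing the data. Some genes of the whole tables are not reported here.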

Additional observations from a re-analysis of the deposited data

Results flagged for a closer look

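Among 76 gene and group combinations with 4 or 5 libraries, 6 had 1 library far above the others, all on the high side. Chance flags about 1 in 20 where values are normally distributed, a rate that need not hold for CPM in groups that mix runs. The 6 were Igf2r in Rosa KO 1 (608 CPM, next 200), Gnas in Rosa KO 1 (662, next 513), Peg13 in Asxl1 KO 1 (246, next 46.9), Kcnq1ot1 in Asxl1 KO 2 (366, next 101), Rian in Asxl1 KO 4 (5.1, next 0.316) and Mest in Tet2 KO 2 (15.3, next 5.12). Rosa KO 1 and Asxl1 KO 1 and 2 are the only libraries of their group in their run.

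A difference between 2 groups itself differed between runs for 3 genes (edgeR with 1 level per group and run, 8 residual degrees of freedom, chosen after seeing the data). Igf2r in Asxl1 KO against Rosa KO differed by 1.61 on the log2 scale (run 3 minus run 1, adjusted p = 0.01). Peg13 in Asxl1 KO against Dnmt3a KO differed by -3.32 (run 2 minus run 1, adjusted p = 0.0285) and H13 by -1.24 (adjusted p = 0.0385), where 3.06% of all genes were called. Each rests on single libraries: Igf2r on Rosa KO 1 and Asxl1 KO 1, the only libraries of their groups in run 1, and Peg13 and H13 on Asxl1 KO 1 and 2, the only Asxl1 KO libraries of runs 1 and 2.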

How the results depend on the processing

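The 6 comparisons are given in the order Asxl1 KO, Dnmt3a KO and Tet2 KO against Rosa KO, Asxl1 KO against Dnmt3a KO, Asxl1 KO against Tet2 KO and Dnmt3a KO against Tet2 KO. With edgeR 1.64, 0.216, 1.47, 0.353, 0.562 and 0.0937% of all tested genes were called, and 0 imprinted genes in each. Without the run term these were 0.166, 0.137, 0.166, 0.0432, 0.195 and 0.0072%, with 0 imprinted genes. Without the filter on low counts they were 2.68, 0.59, 1.78, 1.46, 0.906 and 0.311%, with 1 imprinted gene in each of Asxl1 KO against Rosa KO (Cd81), Tet2 KO against Rosa KO (Airn), Asxl1 KO against Dnmt3a KO and Asxl1 KO against Tet2 KO (Peg13 in both). DESeq2 gave 4.78, 1.09, 2.94, 1.55, 1.27 and 0.526%, with 1, 0, 1, 0, 1 and 0 imprinted genes, and 10 imprinted genes for the run term in place of 6. Over the alternatives other than leaving out 1 library, the run term called 8.03 to 29.4% of all tested genes, against 23.6% in the main fit. The B cell covariate gave 0.158% in Asxl1 KO against Dnmt3a KO.

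Same-numbered libraries of different groups shared little: over 24 such pairs the correlation of deviations ran from -0.206 to 0.163, with 2 over 0.1. Pairs within a run ran from 0.0505 to 0.163. Deviations were taken from group means without removing run, and pairs with different numbers were not compared. The check therefore cannot tell pairing from run and does not exclude it. The replicate block gave 0.367, 0, 0.375, 0.0144, 0.267 and 0.0072% of genes and 8.03% for the run term, against 23.6% without it. No imprinted gene was called between groups under the block, and 4 were for the run term, where Igf2r (adjusted p = 0.0802) and H13 (0.268) no longer passed.

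Within run 1, Asxl1 KO against Rosa KO gave 5.1% of genes and 2 imprinted genes (Igf2r, Peg13), Dnmt3a KO against Rosa KO 0.353% and 0, and Asxl1 KO against Dnmt3a KO 9.92% and 2 (Peg13, H13); these fits have 1 residual degree of freedom and a single library of Rosa KO and of Asxl1 KO, so their calls compare libraries, not conditions. Within run 2, the comparisons between knockouts gave 0, 0 and 0.0504%. Within run 3, Asxl1 KO against Rosa KO gave 4.39% and 2 imprinted genes (Igf2r, Cd81), Tet2 KO against Rosa KO 2.94% and Asxl1 KO against Tet2 KO 1.16%. Without both Asxl1 KO 3 and 4, Asxl1 KO against Rosa KO, Dnmt3a KO and Tet2 KO gave 0.63, 0.203 and 0.298%, and H13 had an adjusted p of 0.0526 for the run term.

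Leaving out 1 library at a time gave 0.563 to 2.61, 0.147 to 0.49, 0.23 to 2.53, 0.077 to 1.65, 0.244 to 0.637 and 0.014 to 0.153% of genes, and 18 to 23.9% for the run term. Imprinted genes called were 0 to 1 in Asxl1 KO against Rosa KO (Impact without Dnmt3a KO 1, Cd81 without Tet2 KO 2), 0 in the other 5 comparisons and 5 to 8 for the run term. The number of imprinted genes without a count was 1 to 2, that with at most 3 counts in every library 2 to 4, and that tested 19 to 23. With a line of 10 counts in place of 3, 5 genes lay at or under it (H19, Snrpn, Ndn, Mirg and Dlk1). The causes of these changes were not tested. Depth limits the silent genes, since 3 counts are up to 0.453 CPM.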
